A study of Mus musculus with 13 samples.

Results

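The mouse genes that carry a number after the prefix Zfp, for zinc-finger protein, were examined for their expression in embryonic stem cells (ESCs) before and after deletion of Jmjd2 genes. A gene was taken as a member when a probe of the authors' deposited expression table was matched, through its accession, to a current symbol of Zfp followed only by digits. Zfp42, a pluripotency marker whose other name is Rex1, was left out. This gave 262 genes with 343 probes in that table, of 11189 gene symbols in it. The whole array design held 339 such genes with 509 probes, so 77 numbered Zfp genes were not members. A single probe stood for each gene, the one with the highest mean signal over all arrays, and for all 262 genes it was well above background on all 13 arrays.

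RNA was hybridised to 1-colour Agilent arrays from 6 mouse ESC lines of C57Bl/6 origin, each grown untreated (control) and with 4-hydroxytamoxifen (OHT). The 3 lines cl4, cl5 and cl6 carried floxed alleles of Jmjd2a and Jmjd2c, written Jmjd2a(f/f) and Jmjd2c(f/f), with Rosa26::CreERT2, and are called 2ac. The other 3, called 2abc, had Jmjd2b(f/f) in addition and were cl280.4, cl324.9 and cl324.13. OHT was given at 500 nM for 12 days, and RNA was taken 6 days later. All 4 groups of 3 samples therefore carried the floxed alleles and the Cre recombinase fused to a modified oestrogen receptor, driven from the Rosa26 locus, and no group was treated with OHT in the absence of floxed alleles among the samples analysed here. Culture was on gelatin, free of serum, in N2B27 with 2i and LIF, and age does not apply to these lines. The lines of a genotype were described as independently established. The sources used here do not say whether cl324.9 and cl324.13, which share a number, derive from 1 parent. The p-values of the OHT comparisons measure how much the change from control to OHT varied between lines. That spread was pooled over both genotypes, so a 2ac p-value also rests on the 2abc lines, and the reverse. Only 3 lines per genotype limit the precision.

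Numbered Zfp genes mostly encode proteins with tandem C2H2 zinc fingers that bind DNA, and many of them also hold a KRAB domain. A KRAB domain recruits the corepressor TRIM28, which brings the methyltransferase SETDB1 and leads to methylation of histone H3 lysine 9 (H3K9me3), chiefly at retroelements and imprinted regions. Many KRAB zinc-finger genes lie in clusters of related copies whose own bodies carry H3K9me3. Jmjd2 (Kdm4) enzymes remove tri- and dimethylation from H3 lysines 9 and 36.

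The deleted genes were followed first. Kdm4c (Jmjd2c) fell by 2.90 on the log2 scale in 2ac (limma, Benjamini-Hochberg adjusted p = 0.00489) and by 3.21 in 2abc (adjusted p = 0.00406). Kdm4a (Jmjd2a) fell by 0.74 (adjusted p = 0.0116) and by 0.67 (adjusted p = 0.0122). Both were lower after OHT in all 6 lines. Kdm4b (Jmjd2b) fell by 2.22 in 2abc (adjusted p = 0.00448), and in 2ac, where it was not floxed, its change was 0.12 (adjusted p = 0.736). Between 50.1 and 63.9% of the probes on an array were well above background. All 2abc lines and cl6 shared 1 slide. The control and OHT arrays of every line shared a slide as well, except the first of the 2 hybridisations of the OHT culture of cl4. All 9 ESC markers examined, Pou5f1, Sox2 and Nanog among them, were well above background on all 13 arrays, 2 of them fell over the 6 lines (Tfcp2l1 by 0.55 and Tdgf1 by 0.45) and 0 rose. Of 8 fibroblast markers 3 were measured and 1 rose (Col1a2, by 0.97), with Dcn and Postn above background on 0 arrays. Of 6 blood markers 3 were measured and 1 fell (Cd3e, by 0.69), with Lyz2 above background on 0 arrays. Of 5 primitive endoderm markers 3 were measured, of which Gata6 rose by 0.80 and Sox17 fell by 1.32, and of 5 trophectoderm markers 4 were measured and 1 fell (Krt7, by 1.26). The part of other cell types in the Zfp changes was not tested.

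A larger share of the Zfp genes than of all features changed after OHT, and over the 6 lines more of them rose than fell. There 106 of the 262 members (40.5%) passed the test at an adjusted p under 0.05, against 28.7 percent of all 22967 features tested. There were 63 rises (24.0% of members, against 14.0 percent of all features) and 43 falls (16.4%, against 14.7 percent). In 2ac alone 49 members passed (18.7%, against 12.3 percent), 32 of them higher (12.2%, against 5.75 percent) and 17 lower (6.49%, against 6.5 percent). In 2abc alone 77 passed (29.4%, against 17.6 percent), 47 higher (17.9%, against 8.59 percent) and 30 lower (11.5%, against 9.03 percent). Since every member was above background on all arrays, the members were also set against the 19405 features of which the same holds. There, 58 members passed in 2ac (22.1%, against 16.0 percent), 91 in 2abc (34.7%, against 21.4 percent) and 118 of the 262 over the 6 lines (against 32.5 percent). The share of falls lay near that of all features in 2ac and over the 6 lines. These counts describe the set and are not a test of it. In bulk samples such as these, fewer cells that express a gene and less of its RNA per cell cannot be told apart.

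The counts for a single genotype rest on few lines. Without line cl5 3 members passed in 2ac, without cl4 6, without cl6 27, without cl324.13 28 and without cl324.9 31. Counts over all 22967 features dropped as well, from 2815 to 157, 343, 1723, 1556 and 1578 in the same order. In 2abc 6 passed without cl324.9, 6 without cl324.13, 38 without cl4 and 42 without cl5. All-feature counts there were 247, 218, 2340 and 2373 in that order, in place of 4046. Over the 6 lines 58 to 105 passed when 1 line was left out, with 61 without cl324.9, 58 without cl324.13, 68 without cl4 and 61 without cl5. The matching all-feature counts were 3649, 3567, 4102 and 3591, in place of 6585. When arrays were scaled by their median in place of their 75th percentile, the balance in 2ac turned, with 11 higher and 13 lower in place of 32 and 17. The share of higher calls among all features moved with it, from 46.9% to 37.7%, against 65.3% to 45.8% among members. With median scaling 24 of the 262 members were called in 2ac, against 2036 of 22967 features. The member share there was near that of all features, so the larger share in 2ac depended on the scaling. In a fit to the 2abc samples alone the balance also turned, with 8 members higher and 11 lower in place of 47 and 30, which is 42.1% higher against 54.4% among all features. The fit to the 2ac samples alone gave 15 higher and 8 lower.

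Most changes were small. The median change of the 262 members over the 6 lines was 0.10 on the log2 scale, against 0.00 for all features, and 163 of 262 were above 0. The 63 rises ran from 0.19 to 1.46 with a median of 0.48, and 35 of them were under 0.5. The 43 falls ran in size from 0.24 to 1.78 with a median of 0.40, and 25 were under 0.5. Only 7 rises and 4 falls reached 2-fold. The member median was 0.10 in cl4, 0.15 in cl5, 0.03 in cl6, -0.00 in cl280.4, 0.12 in cl324.9 and 0.17 in cl324.13. In the same order, the median of all other features was 0.05, 0.08, -0.09, 0.01, -0.10 and 0.01. Only in cl280.4 did the member median lie below that of the other features. Of the 106 members called over the 6 lines, 60 rises and 35 falls had the same direction in each of the 6 lines. The 6 control and 6 OHT samples did not overlap at all for 37 members that were higher after OHT (14.1%, against 5.88 percent of all features) and for 21 that were lower (8.02%, against 6.66 percent). All 106 kept their sign in the 15 other fits tried, and 54 of them (34 rises and 20 falls) passed in every one. How many of all features reached 2-fold, kept 1 direction in all 6 lines or passed in every fit was not counted. These counts therefore cannot be read as particular to the members.

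The members called in both genotypes had the same direction in each. There were 39 of them, 25 higher and 14 lower, and 0 were called in opposite directions. These were 14.9% of members, against 7.53% of all features, of which 10 of 1730 were called in opposite directions. A further 10 members were called in 2ac only (3.82%, against 4.72% of all features) and 38 in 2abc only (14.5%, against 10.1%). Over all 262 members 205 had the same sign in both genotypes (78.2%, against 71.7% of all features), and the 2 changes correlated at r = 0.825 across genes, which are not independent replicates. No difference between the genotypes could be shown for any member. The test of the 2abc change minus the 2ac change called 0 members, against 0.0 percent of all features. At an unadjusted p under 0.05 there were 35 members, and the lowest adjusted p was 0.305. The untreated lines of the 2 genotypes were also compared, with limma on the 6 control samples, and 0 members were called against 0.00871 percent of all features. In that comparison 59 members had an unadjusted p under 0.05. The share of all features under that unadjusted p was not counted in either comparison, so neither count can be read as particular to the members. Its lowest adjusted p among members, 0.0619, belonged to Zfp932, which stood at 1.75, 1.64 and 1.77 in untreated 2ac lines and at 2.74, 2.41 and 2.39 in untreated 2abc lines. For Zfp932 these groups did not overlap (difference 0.79, SE 0.12), although the call missed the threshold.

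**Figure D1:**
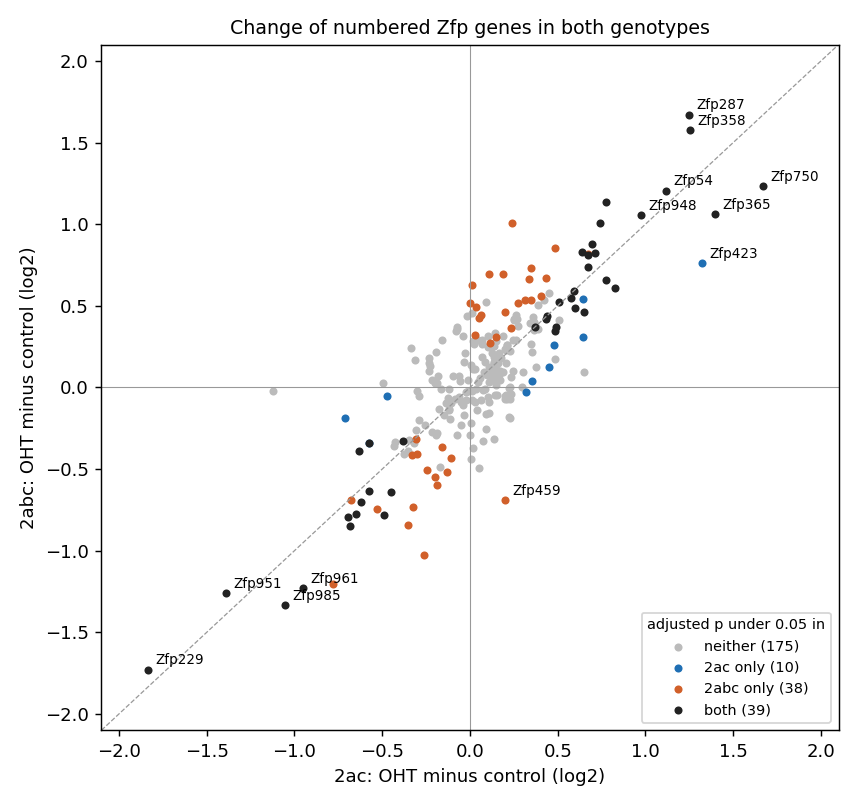
Each point is 1 of the 262 numbered Zfp genes, with its mean log2 change (OHT minus control) in the 3 2ac lines on the x axis and in the 3 2abc lines on the y axis. Colours separate the 39 genes called in both genotypes, the 10 called in 2ac only, the 38 called in 2abc only and the 175 called in neither (limma, adjusted p under 0.05). Points lie along the diagonal, with Zfp229 at -1.83 and -1.73 at one end and Zfp287 and Zfp750 at the other.

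The promoters that accompany these changes are shown first for the genes that fell together on chromosome 4. Of the 262 members, 219 were matched by symbol to a RefSeq promoter of assembly GRCm38.p6, which runs from 250 bases before to 50 bases after the annotated start. The 10 members from Zfp987 to Zfp933 lie within 15 neighbouring protein-coding genes of chromosome 4, and 9 of them had a promoter in the table. Of these 9, the 7 of Zfp987, Zfp600, Zfp981, Zfp985, Zfp979, Zfp534 and Zfp984, resemble one another, with an identity of 57.9 to 94.4% over their 21 pairs (median 72.4%). The 15 pairs that involve Zfp982 or Zfp933 had 43.4 to 48.9% (median 45.8%). A pair of runs of letters is shared exactly by all 7 and is in capitals below, GCAAGCAAGCAA and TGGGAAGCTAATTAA, read on the gene's strand. Zfp600 and Zfp979 are the most alike pair, Zfp985 and Zfp981 had the largest falls of the cluster, and Zfp982 is shown as a neighbour without the runs.
Zfp600, chr4:146156577-146156876, plus strand: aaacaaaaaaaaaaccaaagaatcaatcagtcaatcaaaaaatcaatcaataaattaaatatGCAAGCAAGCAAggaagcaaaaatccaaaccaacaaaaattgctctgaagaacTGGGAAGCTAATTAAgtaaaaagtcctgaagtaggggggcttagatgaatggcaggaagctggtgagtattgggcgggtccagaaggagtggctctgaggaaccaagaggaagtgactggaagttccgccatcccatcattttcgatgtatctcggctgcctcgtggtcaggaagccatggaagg
Zfp979, chr4:147642459-147642758, minus strand: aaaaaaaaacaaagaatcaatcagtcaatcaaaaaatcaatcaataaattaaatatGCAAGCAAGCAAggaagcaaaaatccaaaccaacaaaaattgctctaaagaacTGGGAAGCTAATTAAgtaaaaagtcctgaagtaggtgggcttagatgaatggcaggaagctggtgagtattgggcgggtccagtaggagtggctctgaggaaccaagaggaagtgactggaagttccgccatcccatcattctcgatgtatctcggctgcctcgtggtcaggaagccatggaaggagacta
Zfp985, chr4:147553027-147553326, plus strand: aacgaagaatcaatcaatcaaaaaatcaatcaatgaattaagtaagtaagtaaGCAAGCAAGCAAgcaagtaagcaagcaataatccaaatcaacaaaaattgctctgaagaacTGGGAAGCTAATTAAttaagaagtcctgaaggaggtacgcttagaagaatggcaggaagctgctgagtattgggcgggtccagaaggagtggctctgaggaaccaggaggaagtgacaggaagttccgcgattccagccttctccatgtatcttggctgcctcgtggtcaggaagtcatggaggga
Zfp981, chr4:146514670-146514969, plus strand: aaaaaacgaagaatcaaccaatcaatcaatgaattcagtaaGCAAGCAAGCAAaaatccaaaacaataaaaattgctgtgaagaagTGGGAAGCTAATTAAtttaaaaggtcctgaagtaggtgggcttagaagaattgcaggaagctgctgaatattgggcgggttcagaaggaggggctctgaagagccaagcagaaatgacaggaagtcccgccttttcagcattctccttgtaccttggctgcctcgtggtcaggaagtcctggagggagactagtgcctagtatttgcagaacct
Zfp982, chr4:147442864-147443163, plus strand: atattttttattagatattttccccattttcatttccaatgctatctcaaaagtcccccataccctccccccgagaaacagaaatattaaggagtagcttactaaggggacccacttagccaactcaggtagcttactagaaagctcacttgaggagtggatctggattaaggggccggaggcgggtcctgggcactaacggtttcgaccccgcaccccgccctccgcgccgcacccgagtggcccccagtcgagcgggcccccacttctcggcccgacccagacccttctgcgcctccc

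Searched on both strands, the 15-base run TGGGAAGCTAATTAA was found in 11 of 27025 promoters in the RefSeq table (0.0407%), and all 11 lie on chromosome 4. They are the 7 members, Rex2, a gene that lies between them under another name, and Gm13212, Zfp980 and Zfp988, which were not analysed here. The 12-base run GCAAGCAAGCAA was in 26 promoters (0.0962%). All 8 genes with the 15-base run that were measured fell over the 6 lines, by 0.33 to 1.19 on the log2 scale. The run was itself taken from 7 of these 8, all members of a cluster that fell. Only Rex2, which lies in the same cluster, was not used to find it, so no link between run and change can be drawn. Zfp982, which fell by 0.54, and Zfp933, which fell by 0.66, held neither run. These matches describe the letters only. Near-identical copies may also share probe signal, which was not tested.

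Of the 10 chromosome 4 members 9 fell over the 6 lines, and 0 rose. In 2ac 3 were called lower and in 2abc 6. The cluster median was -0.47, with -0.30, -0.28 and -0.71 in cl4, cl5 and cl6 and -0.69, -0.46 and -0.49 in cl280.4, cl324.9 and cl324.13, so it was below 0 in all 6 lines. The 940 other features of chromosome 4 had a median of -0.06. In the 15 other fits 5 to 9 of the 10 were called lower, 0 were called higher, and the cluster median stayed between -0.50 and -0.42.

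Zfp985 was the most changed gene of the cluster. On the log2 scale relative to each array's 75th percentile, its level was 4.70, 4.55 and 4.23 in untreated cl4, cl5 and cl6 and 3.68, 3.71 and 2.94 after OHT. In the 2abc lines, taken as cl280.4, cl324.9 and cl324.13, it was 4.80, 4.39 and 4.26 untreated and 3.25, 3.10 and 3.10 after OHT. All 6 treated samples lay below all 6 untreated ones. The change was -1.05 in 2ac (adjusted p = 0.00896, SE 0.12) against -1.33 in 2abc (adjusted p = 0.005, SE 0.12), or 2.29-fold lower over the 6 lines (log2 change -1.19, SE 0.09, adjusted p = 0.00109).

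Zfp981 was at 6.66, 6.32 and 6.26 in untreated 2ac lines and at 6.08, 5.90 and 4.92 after OHT. In the 2abc lines it was at 6.57, 6.31 and 6.37 untreated and at 5.63, 5.06 and 4.94 after OHT. Again no treated sample reached an untreated one, and cl6, cl324.9 and cl324.13 were lowest. Zfp981 was 1.99-fold lower over the 6 lines (log2 change -0.99, SE 0.14, adjusted p = 0.0054), and the 2ac change of -0.78 missed the threshold (adjusted p = 0.0549).

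The other falls of the cluster were smaller. Zfp600 fell by 0.68 (SE 0.12, adjusted p = 0.0103), and its treated 2ac samples overlapped the untreated 2abc ones, since untreated levels were 1.30 to 1.83 in 2ac and 0.99 to 1.37 in 2abc. Zfp933 fell by 0.66 (SE 0.08, adjusted p = 0.00369), while a second Zfp933 probe, also above background on all arrays, changed by 0.22 and was not called, so the call rests on 1 probe. Zfp982 fell by 0.54, Zfp534 by 0.39, Zfp979 by 0.38, Zfp984 by 0.37 and Zfp987 by 0.33, with adjusted p from 0.00348 to 0.0425. Zfp992 was the exception. It changed by -0.07 over the 6 lines (adjusted p = 0.71), with 0.17 in 2abc. Among the neighbours that are not members, Rex2 fell by 0.79 (SE 0.14, adjusted p = 0.0119). Of the 5 tested genes just beyond the cluster, Miip fell by 0.54 and 2510039O18Rik by 0.40 (adjusted p = 0.00877), and Fv1, Mfn2 and Plod1 changed by 0.21, -0.03 and -0.06 without passing the test.

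**Figure D2:**
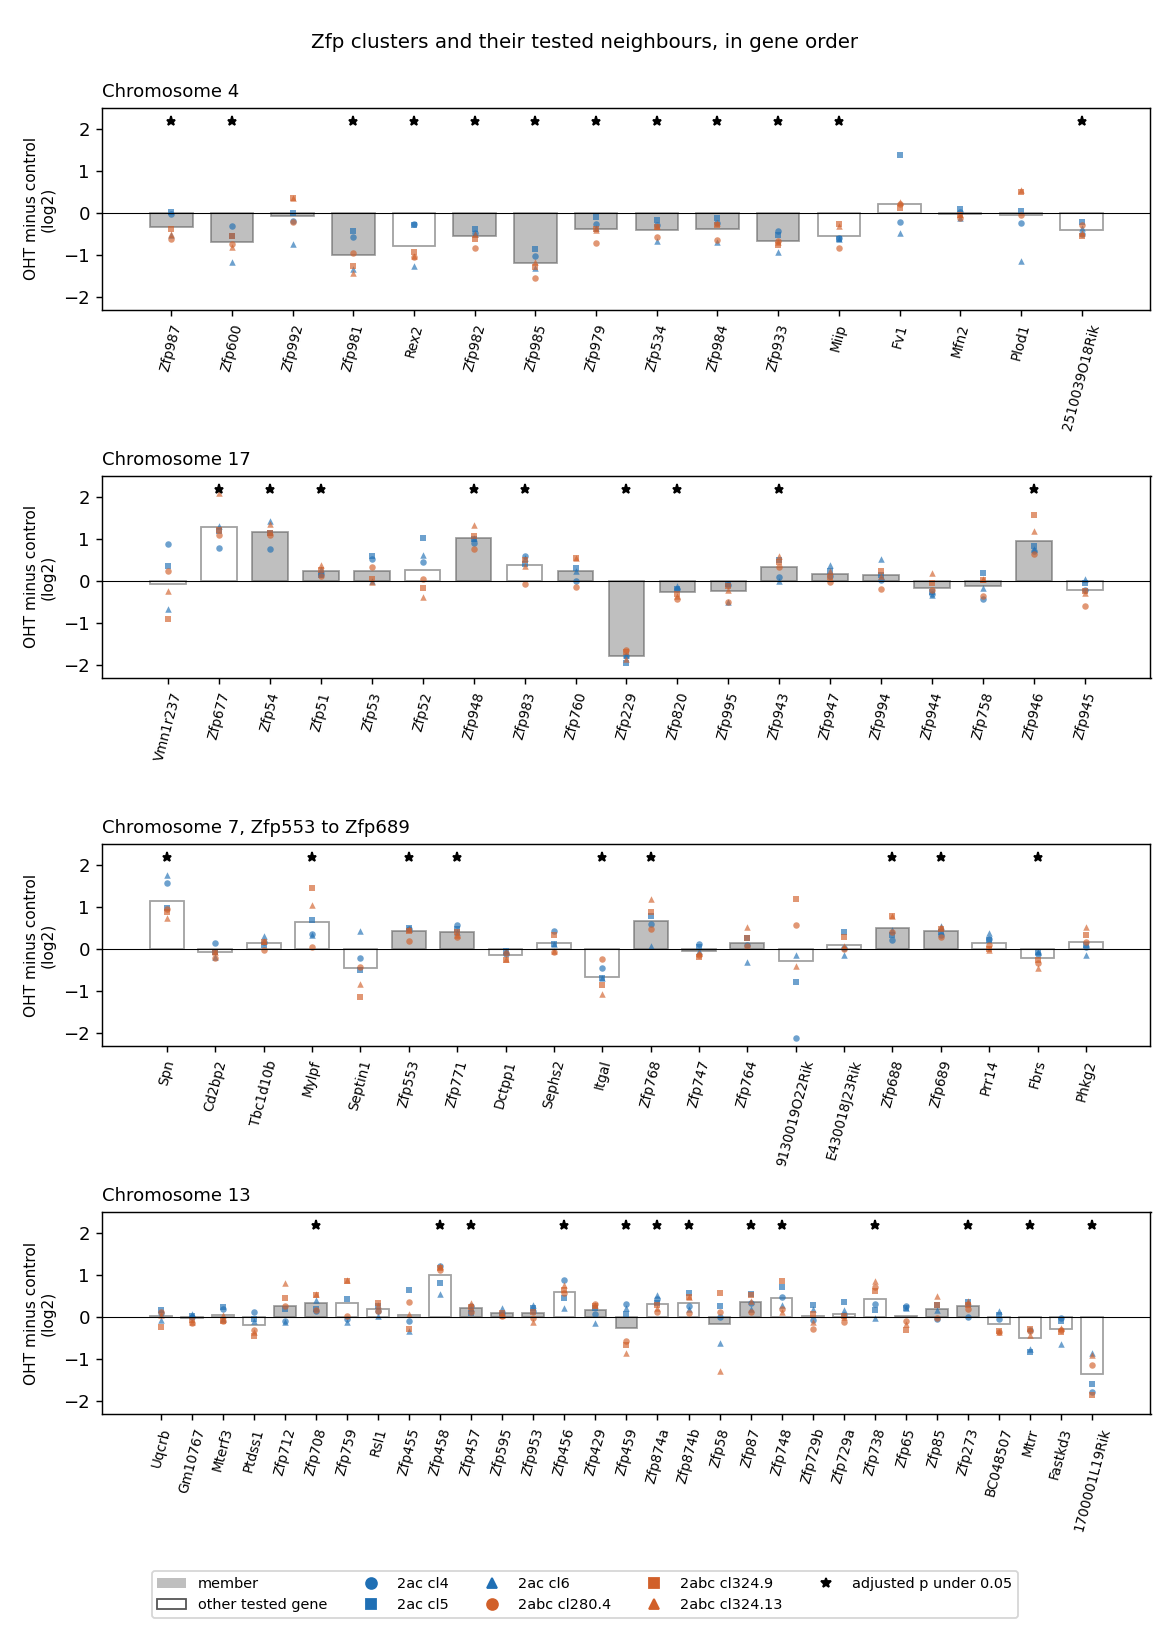
Bars give the mean log2 change (OHT minus control) over the 6 lines for genes in chromosomal order in 4 clusters of numbered Zfp genes, with members filled, other tested genes open, the 6 lines as symbols and a star where the limma adjusted p is under 0.05. On chromosome 4 all 10 members lie below 0 and 9 are starred, on chromosome 17 Zfp229 at -1.78 lies in a cluster with 5 members that rose, and on chromosome 7 the members from Zfp553 to Zfp689 lie at or above -0.05.

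Members were also grouped along the other chromosomes, by joining those with at most 5 protein-coding genes between them into clusters of at least 3. This gave 25 clusters with 133 members, of which 31 rose (23.3%) and 25 fell (18.8%), with a median change of 0.12. The 129 members outside clusters were 32 higher (24.8%) and 18 lower (14%), with a median of 0.07. Of all features 14.0 percent rose and 14.7 percent fell, so the falls outside clusters were near that share. There were 8 clusters with 3 or more called members in at least 1 comparison. The largest single fall of any member was found in the chromosome 17 cluster of 14 members from Zfp54 to Zfp946, which held 5 rises and 2 falls. Its promoters were mostly unlike one another, with an identity of 42.9 to 94.8% and a median of 47.0%. Those of Zfp229, which fell, and of Zfp54, Zfp948 and Zfp946, which rose, are printed to show this contrast. Capitals mark an E-box, CACGTG, the letters bound by basic helix-loop-helix factors such as MYC and USF.
Zfp229, chr17:21733474-21733773, plus strand: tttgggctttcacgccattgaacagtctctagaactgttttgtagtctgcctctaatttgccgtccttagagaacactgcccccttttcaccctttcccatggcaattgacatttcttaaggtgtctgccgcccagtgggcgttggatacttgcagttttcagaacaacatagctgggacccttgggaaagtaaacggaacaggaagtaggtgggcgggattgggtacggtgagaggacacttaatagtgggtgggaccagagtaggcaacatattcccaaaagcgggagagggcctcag
Zfp54, chr17:21422977-21423276, plus strand: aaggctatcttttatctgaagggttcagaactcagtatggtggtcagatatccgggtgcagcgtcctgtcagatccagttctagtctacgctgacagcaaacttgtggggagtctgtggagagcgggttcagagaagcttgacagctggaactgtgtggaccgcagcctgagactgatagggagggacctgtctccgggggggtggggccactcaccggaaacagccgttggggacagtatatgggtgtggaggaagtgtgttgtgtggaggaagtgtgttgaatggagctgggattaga
Zfp948, chr17:21566728-21567027, plus strand: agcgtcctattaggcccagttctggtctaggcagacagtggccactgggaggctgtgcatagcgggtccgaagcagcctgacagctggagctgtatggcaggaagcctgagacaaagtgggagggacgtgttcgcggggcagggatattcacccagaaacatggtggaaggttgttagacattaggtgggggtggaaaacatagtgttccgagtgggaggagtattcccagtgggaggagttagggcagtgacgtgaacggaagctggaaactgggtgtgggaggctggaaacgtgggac
Zfp946, chr17:22423952-22424251, plus strand: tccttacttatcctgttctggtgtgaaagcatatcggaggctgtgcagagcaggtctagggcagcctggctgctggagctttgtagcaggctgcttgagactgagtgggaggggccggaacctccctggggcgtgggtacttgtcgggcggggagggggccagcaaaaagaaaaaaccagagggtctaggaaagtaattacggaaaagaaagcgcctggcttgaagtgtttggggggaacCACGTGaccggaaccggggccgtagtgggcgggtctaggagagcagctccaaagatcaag

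The E-box CACGTG was found in 7 of 13 matched promoters of this cluster (53.8%), against 7.24% of all 27025 promoters. Of the 4 printed here, Zfp946 is the one that holds it.

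Zfp229 (probe A_55_P2061565) was the member with the largest change of either sign. Its level was 1.90, 1.75 and 1.65 in untreated cl4, cl5 and cl6 and 0.13, -0.21 and -0.12 after OHT. In the 2abc lines it went from 1.44, 1.39 and 1.51 to -0.21, -0.29 and -0.34. The treated samples of both genotypes lay close together and far below every untreated sample. The change was -1.83 in 2ac (adjusted p = 0.00234, SE 0.09) against -1.73 in 2abc (adjusted p = 0.00273, SE 0.09), or 3.43-fold lower over the 6 lines (SE of the log2 change 0.06, adjusted p = 0.000517).

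Zfp54, in the same cluster, rose from -2.89, -3.07 and -2.49 to -2.11, -1.93 and -1.06 in 2ac lines. In 2abc lines it rose from -2.76, -2.36 and -2.42 to -1.65, -1.22 and -1.06. The treated samples all lay above the untreated ones, and the level was 2.24-fold higher over the 6 lines (log2 change 1.16, SE 0.10, adjusted p = 0.00155), though 0.68 on the log2 scale in the authors' deposited table. Zfp948 rose from a range of -0.34 to -0.27 in untreated 2ac lines to 0.55, 0.73 and 0.72, and from -0.37, -0.21 and -0.39 to 0.39, 0.87 and 0.93 in 2abc lines. It was 2.02-fold higher (log2 change 1.02, SE 0.08, adjusted p = 0.0015). Zfp946 at the far end of the cluster was 0.95 higher (SE 0.12, adjusted p = 0.00439), also with no overlap between treated and untreated samples. Smaller rises were seen for Zfp943 (0.33) and Zfp51 (0.23), and Zfp820, next to Zfp229, fell by 0.26. In the 15 other fits 3 to 6 members of the cluster were called higher and 1 to 2 lower.

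On chromosome 7, 7 members from Zfp553 to Zfp689 lie within 12 neighbouring genes, and 5 of them rose while 0 fell. The cluster median was 0.43, with 0.34, 0.42 and 0.41 in cl4, cl5 and cl6 and 0.28, 0.44 and 0.53 in cl280.4, cl324.9 and cl324.13. The 5 measured genes between them that are not members had a median of -0.13, 0 of them rose and Itgal fell. The 8 tested genes just beyond the cluster had a median of 0.15. Of those, Spn rose by 1.15 (adjusted p = 0.00223), Mylpf rose by 0.66 (adjusted p = 0.0438) and Fbrs fell by 0.22 (adjusted p = 0.0316). In the 15 other fits 4 to 5 members of the cluster were called higher and the median stayed between 0.41 and 0.47. The promoters of Zfp768 and Zfp688, which had the largest rises of the cluster, are printed. That of Zfp768 holds 35 CpG dinucleotides and that of Zfp688 holds 22, and capitals mark the ETS core CCGGAAG on either strand.
Zfp768, chr7:127345265-127345564, minus strand: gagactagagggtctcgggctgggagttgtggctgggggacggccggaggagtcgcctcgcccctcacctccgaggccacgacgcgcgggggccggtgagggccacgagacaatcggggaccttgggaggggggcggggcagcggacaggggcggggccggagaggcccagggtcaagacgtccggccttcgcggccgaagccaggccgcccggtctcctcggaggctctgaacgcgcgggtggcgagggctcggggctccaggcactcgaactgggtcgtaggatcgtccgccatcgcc
Zfp688, chr7:127421985-127422284, minus strand: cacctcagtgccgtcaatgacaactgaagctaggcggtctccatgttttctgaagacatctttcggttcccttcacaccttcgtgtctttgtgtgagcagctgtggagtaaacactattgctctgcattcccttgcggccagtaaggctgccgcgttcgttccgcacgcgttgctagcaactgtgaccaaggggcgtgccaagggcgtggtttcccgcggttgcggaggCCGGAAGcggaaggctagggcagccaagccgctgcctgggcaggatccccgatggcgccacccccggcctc

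Zfp768 rose from 0.85, 0.65 and 0.50 to 1.45, 1.45 and 0.56 in 2ac lines, where cl6 moved least. In 2abc lines it rose from 0.73, 0.77 and 0.46 to 1.21, 1.66 and 1.65, and the change over the 6 lines was 0.67 (SE 0.13, adjusted p = 0.015). Zfp688 rose by 0.50 (SE 0.08, adjusted p = 0.007), Zfp689 by 0.44 (adjusted p = 0.00564), Zfp553 by 0.43 (adjusted p = 0.00529) and Zfp771 by 0.41 (adjusted p = 0.00445). Zfp747 and Zfp764, whose promoters are 86.3% identical, changed by -0.05 and 0.15 and did not pass the test. Untreated levels of Zfp553 were 4.01 to 4.14 in all 6 lines and treated levels 4.34 to 4.55, so that a change of less than 1.5-fold still left the groups apart.

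The remaining clusters moved less, or in both directions. The 12 members on chromosome 13 from Zfp712 to Zfp273 had 4 rises (Zfp87 0.36, Zfp708 0.33, Zfp273 0.27 and Zfp457 0.22) and 1 fall (Zfp459, -0.25), with a median of 0.18. A second Zfp708 probe fell by 0.41, so the direction of Zfp708 is uncertain. Of the 11 measured genes between them that are not members, which include Zfp458 (1.02), 6 rose and 0 had a change below 0. Of these 6, 4 are not in the deposited table and could pass the filter of the test by being bright only after OHT, so this balance supports nothing about direction. The calls of the members depended on the settings, since 0 to 5 of the 12 were called higher in the 15 other fits. On chromosome 7 the 13 members from Zfp84 to Zfp146 had 5 rises and 0 falls (Zfp27 0.72, Zfp74 0.56, Zfp84 0.46, Zfp260 0.40 and Zfp146 0.30), with 2 to 6 called higher in the other fits. Of the 2 measured genes between them that are not members, Zfp382 fell by 0.62 (adjusted p = 0.00268) and Zfp940 changed by 0.06 (adjusted p = 0.682). A second Zfp84 probe changed by -0.07. Elsewhere on chromosome 7, Zfp329 rose by 0.77 while Zfp446, at the other end of the same cluster, fell by 0.60. Zfp93 and Zfp114 rose by 0.70 and 0.37 while Zfp180 fell by 0.31, and the Zfp114 change was 0.24 in the authors' deposited table. Zfp976 and Zfp936, whose promoters are 82.4% identical, fell by 0.71 and 0.37. Zfp975, next to Zfp976, rose by 0.54 with the probe used. A second probe of Zfp975 fell by 0.52 (adjusted p = 0.0284 in a limma fit over all probes), so its direction is uncertain.

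Outside the clusters on chromosomes 4, 7 and 17, the largest falls were those of Zfp951 and Zfp961. Zfp951 (chromosome 5) went from 1.76, 1.58 and 1.71 to 0.66, 0.60 and -0.37 in 2ac lines and from 1.93, 2.06 and 1.77 to 0.66, 0.72 and 0.59 in 2abc lines. The treated sample of cl6 was lowest, and all treated samples lay below all untreated ones. Zfp951 was 2.51-fold lower over the 6 lines (log2 change -1.32, SE 0.15, adjusted p = 0.00333).

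Zfp961 (chromosome 8) went from 3.55, 3.50 and 3.66 to 2.80, 2.63 and 2.42 in 2ac lines and from 3.74, 3.83 and 3.67 to 2.86, 2.44 and 2.25 in 2abc lines. It was lower in each of the 6 lines with no overlap, by 2.13-fold over all of them (log2 change -1.09, SE 0.11, adjusted p = 0.00225). Also on chromosome 8, Zfp930 fell by 0.77 (SE 0.06, adjusted p = 0.00146), but a second probe of Zfp930 changed by 0.08 and was not called. Zfp960 (chromosome 17) fell by 0.75 (SE 0.06, adjusted p = 0.0014), from 3.81 to 4.07 untreated to 2.95 to 3.39 after OHT.

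Among the rises, Zfp287 and Zfp750, both on chromosome 11, were largest. Zfp287 was at -3.15, -3.28 and -2.40 in untreated 2ac lines and at -1.76, -1.89 and -1.44 after OHT. In 2abc lines it went from -2.63, -2.28 and -2.38 to -1.14, -0.53 and -0.61. Every treated sample was above every untreated one, and the change was 1.25 in 2ac (adjusted p = 0.00617, SE 0.12) against 1.67 in 2abc (adjusted p = 0.00381, SE 0.12). This was 2.75-fold over the 6 lines (log2 change 1.46, SE 0.08, adjusted p = 0.000717). Its size depended on the processing, with a log2 change of 0.79 in the authors' deposited table and 0.90 after normexp on median spot signals.

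Zfp750, a regulator of terminal differentiation of the epidermis, went from -1.20, -1.54 and -1.24 to 0.29, 0.34 and 0.40 in 2ac lines. In 2abc lines it went from -0.82, -1.03 and -1.27 to 0.40, 0.17 and 0.01. It was 2.73-fold higher over the 6 lines (log2 change 1.45, SE 0.07, adjusted p = 0.000623), with no overlap. Zfp358 (chromosome 8) went from -0.26, -0.10 and 0.09 to 1.06, 1.34 and 1.08 in 2ac lines and from -0.19, -0.16 and -0.03 to 0.75, 1.79 and 1.80 in 2abc lines. Among its treated samples cl280.4 was lowest and the cl324 lines were highest. Zfp358 was 2.66-fold higher (log2 change 1.41, SE 0.15, adjusted p = 0.00272).

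Zfp365 (chromosome 10), known for a part in genome stability and in the centrosome, went from 2.09, 2.01 and 2.11 to 3.43, 3.42 and 3.55 in 2ac lines. In 2abc lines it went from 2.34, 2.47 and 2.44 to 3.20, 3.61 and 3.62. The untreated samples of each genotype lay close together, and the rise was 2.35-fold (log2 change 1.23, SE 0.06, adjusted p = 0.000665). Zfp423 (chromosome 8), a partner of SMAD proteins in BMP signalling and a determinant of fat cells, went from -2.37, -2.08 and -2.51 to -0.99, -1.25 and -0.74 in 2ac lines. In 2abc lines it went from -1.75, -2.72 and -1.96 to -1.57, -1.26 and -1.32, where cl280.4 moved by only 0.18. Zfp423 passed in 2ac (1.32, adjusted p = 0.0357) and over the 6 lines (1.04, SE 0.20, adjusted p = 0.0131), and its 2abc change of 0.76 did not (adjusted p = 0.115). There were 2 other Zfp423 probes above background on all 13 arrays. In a limma fit over all probes, 1 changed by 0.16 over the 6 lines (adjusted p = 0.513) and the other by 0.63 (adjusted p = 0.331). Their 2abc changes were -0.11 and -0.10, so the call rests on 1 probe. The 10 largest rises also held Zfp946 above, Zfp37 on chromosome 4 by 0.87 (SE 0.09, adjusted p = 0.00263) and Zfp941 on chromosome 7 by 0.79 (SE 0.06, adjusted p = 0.0011). Treated and untreated samples of Zfp37 and of Zfp941 did not overlap. The 10 largest rises and the 10 largest falls all passed over the 6 lines in each of the 15 other fits. In the authors' deposited table the change was 0.48 for Zfp37 and 0.65 for Zfp423.

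**Figure D3:**
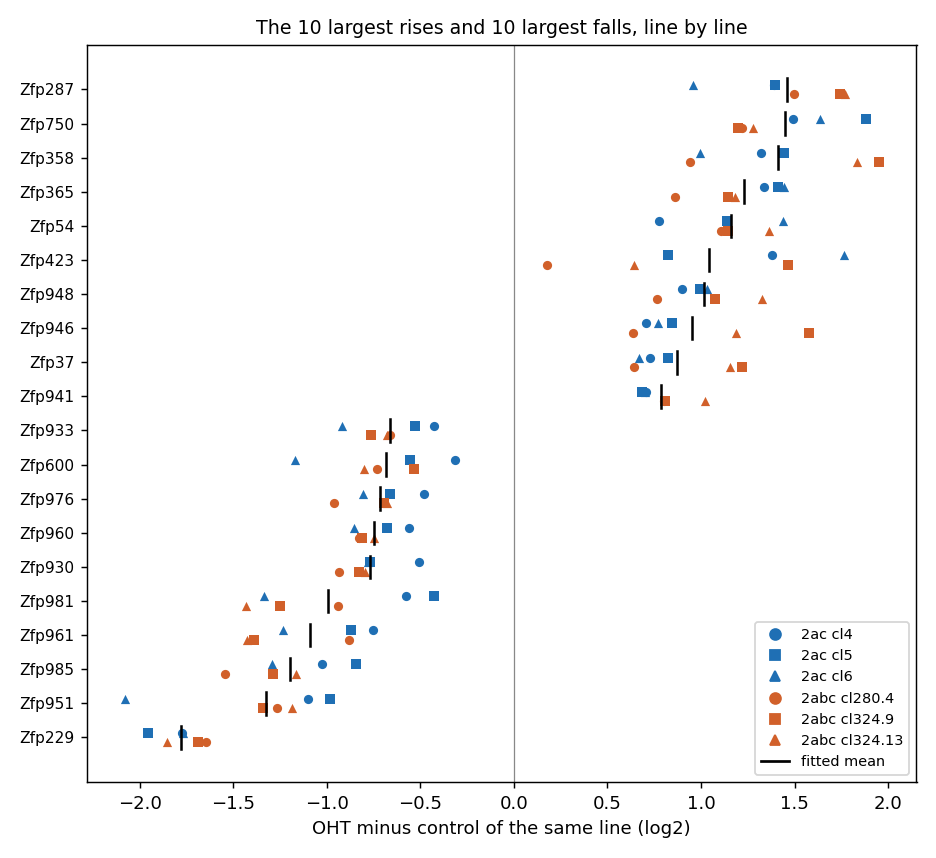
Log2 changes (OHT minus control) in each of the 6 lines are plotted for the 10 members with the largest rises and the 10 with the largest falls over the 6 lines. The 20 genes were chosen to move in 1 direction in all 6 lines, and they run from Zfp229 at -1.78 to Zfp287 at 1.46 on average.

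**Figure D4:**
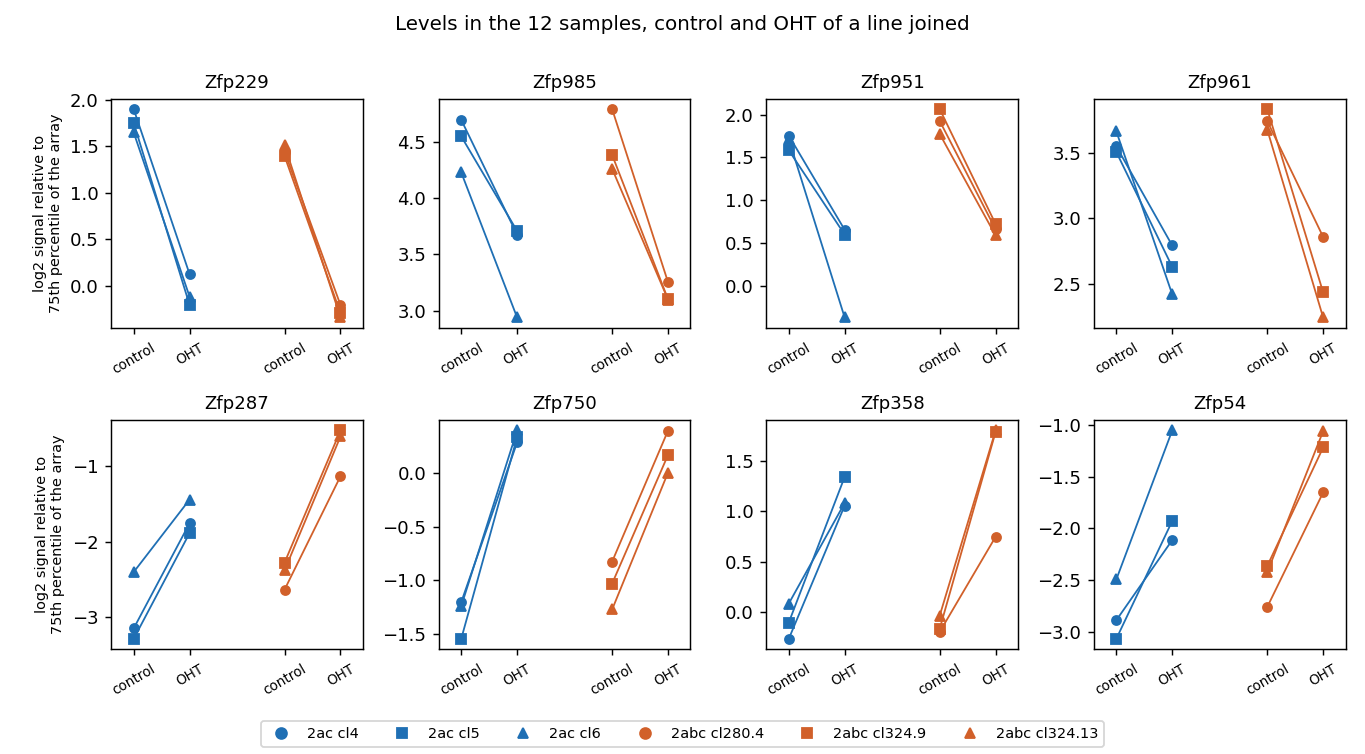
Levels of 8 members in every sample, as log2 signal relative to the array's 75th percentile, with untreated and OHT samples of each line joined by a line. Zfp229, Zfp985, Zfp951 and Zfp961 are lower and Zfp287, Zfp750, Zfp358 and Zfp54 higher in all 6 treated samples than in all 6 untreated ones.

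Some members were among the 10 largest rises or falls of 1 genotype and not of the other. In 2ac these were Zfp623 (0.83, adjusted p = 0.0142), Zfp27 (0.77, adjusted p = 0.0282), Zfp395 (-0.71, adjusted p = 0.0406) and Zfp217 (-0.63, adjusted p = 0.0121). Zfp623, Zfp27 and Zfp217 also passed in 2abc, with 0.61, 0.66 and -0.39. Zfp395 did not, at -0.18 (adjusted p = 0.467), and its treated samples in cl324.9 and cl324.13 stood at -0.11 and -0.14 against -0.29 and 0.01 untreated. Other Zfp395 probes above background on all 13 arrays changed by -0.09 and -0.23 in 2ac (adjusted p = 0.827 and 0.541 in a limma fit over all probes). Another, above background on 12 arrays, changed by -0.56 in 2ac and -0.58 in 2abc. The 2ac call and the contrast with 2abc therefore rest on 1 probe. In 2abc Zfp428 fell by 1.03 (adjusted p = 0.0117), from 3.19, 2.88 and 3.23 to 2.39, 1.94 and 1.89, against a 2ac change of -0.26 (adjusted p = 0.296). Zfp618 rose by 1.01 in 2abc (adjusted p = 0.0309), with 0.31 in cl280.4 and 1.45 and 1.27 in the cl324 lines, against 0.24 in 2ac (adjusted p = 0.533). In the authors' deposited table the 2ac change of Zfp623 was 0.47 and the 2abc change of Zfp618 was 0.66. Zfp446 and Zfp967 fell in 2abc by 0.84 (adjusted p = 0.0236) and 0.78 (adjusted p = 0.0126). For none of these did the difference between genotypes pass its test, as stated above for all members.

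Members with a known part in silencing or imprinting were listed whatever their values. Zfp57, which keeps methylation at imprinting control regions, stood at 2.85 to 3.26 untreated and 2.72 to 3.33 after OHT, so its groups overlapped and its change was 0.07 (adjusted p = 0.632). Zfp445, its partner at imprints, fell by 0.27 (SE 0.08, adjusted p = 0.0435), with -0.11 in 2ac and -0.43 in 2abc. Zfp568, which represses a placental transcript of Igf2, changed by -0.08 (adjusted p = 0.329). Zfp809, which initiates silencing of murine leukaemia proviruses, went from 0.26, 0.04 and -0.25 to -0.52, -0.64 and -0.52 in 2ac lines and from 0.29, 0.24 and 0.50 to -0.23, -0.32 and -0.32 in 2abc lines. Within each genotype all treated samples lay below the untreated ones, and Zfp809 fell by 0.61 (SE 0.09, adjusted p = 0.00635). Zfp708, which binds a family of retroelements, rose by 0.33 with the probe used (adjusted p = 0.0251). With another probe it fell by 0.41 (adjusted p = 0.0422 in a limma fit over all probes), so no direction can be given.

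Apart from Zfp423, described above, the members tied to the ESC state or to general transcription fell or did not pass. Zfp217, a cofactor of the LSD1 complex, fell by 0.51 (SE 0.06, adjusted p = 0.00346), from 2.84 to 3.21 untreated to 2.03 to 2.84 after OHT. Zfp143, which binds promoters and loop anchors, fell by 0.35 (SE 0.06, adjusted p = 0.00734). Zfp207 (BuGZ), a spindle and splicing factor, fell by 0.32 (adjusted p = 0.0152), and Zfp706, which promotes exit from self-renewal, fell by 0.24 (adjusted p = 0.023). Zfp281, which has a part in the step from the naive to the primed state, changed by 0.10 (adjusted p = 0.242), Zfp296, which aids reprogramming to pluripotency, by -0.22 (adjusted p = 0.18) and Zfp462, which guards heterochromatin in ESCs, by 0.33 (adjusted p = 0.0629). Among members that act on RNA or ribosomes, Zfp598, which senses collided ribosomes, changed by -0.16 (adjusted p = 0.0854) and Zfp346, which binds double-stranded RNA, by 0.25 (adjusted p = 0.0503).

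The corepressor machinery that KRAB zinc-finger proteins use was followed with a list of 34 genes, all above background on all 13 arrays. Over the 6 lines 3 rose and 12 fell, with a list median of -0.15, against the 14.0 percent and 14.7 percent of all features given above. In 2ac 2 of the 34 rose and 4 fell, against 5.75 percent and 6.5 percent of all features. In 2abc 2 rose and 13 fell, against 8.59 percent and 9.03 percent. Trim28, the scaffold that KRAB domains bind, fell by 0.29 (SE 0.06, adjusted p = 0.0185), whereas Setdb1, its methyltransferase, changed by 0.17 (adjusted p = 0.206). Atf7ip, the partner of SETDB1, fell by 0.41, Tasor of the HUSH complex by 0.64, Resf1 by 0.56, Morc3 by 0.36 and Cbx1, which codes for HP1 beta, by 0.33. Uhrf1 and Dnmt1, which maintain DNA methylation, fell by 0.60 and 0.19. Hdac1 fell by 0.38, Rif1 by 0.40, Kdm1a by 0.30 and Sumo2 by 0.28. The 3 rises were Dnmt3a by 1.38, Suv39h1 by 0.80 and H3f3b by 0.18. Dnmt3b rose in 2ac (0.68, adjusted p = 0.0204) and fell in 2abc (-0.47, adjusted p = 0.0408), although the test of that difference called 0 features. Whether these changes have a part in those of the Zfp genes was not tested.

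The promoters of the members were compared with those of all genes as a description. Members had a median of 14 CpG dinucleotides in 300 bases, against 7 for all promoters in the table. The median was 15 for the 54 members that rose over the 6 lines, 15 for the 129 that were not called and 9.5 for the 36 that fell. Without the chromosome 4 cluster, whose promoters had a median of 5, the 27 other members that fell had 11. An ETS core (CCGGAAG) was in 18.3% of member promoters and 9.12% of all. An NRF1 motif (CATGCGC) was in 7.76% and 4.04%, a YY1 core (AAGATGGC) in 6.85% and 2.88%, and an E-box (CACGTG) in 22 of 219 member promoters and 7.24% of all. A TATA box (TATAAA) was less frequent, in 6.85% of member promoters and 14.2% of all. By direction, the ETS core was in 14.8% of promoters of members that rose, 19.4% of those that fell and 19.4% of those not called. In the chromosome 4 cluster 0 of 9 promoters held it. All motifs were searched on both strands.

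**Figure D5:**
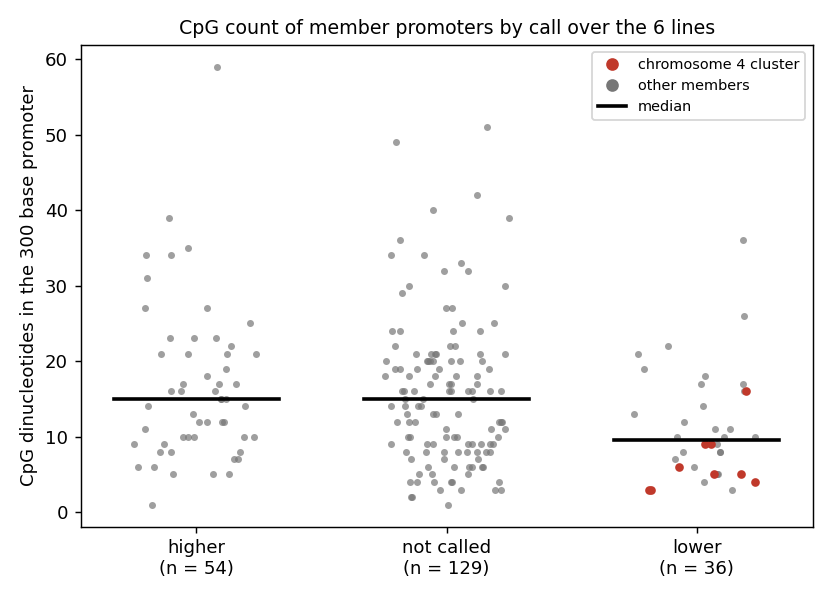
Number of CpG dinucleotides in the 300-base RefSeq promoter of 54 members that rose, 129 that were not called and 36 that fell over the 6 lines, 1 point per gene with the group median as a bar and the chromosome 4 cluster in red. Medians are 15, 15 and 9.5, and the 9 chromosome 4 promoters have a median of 5.

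Chromosome-wide shifts ran beside a few of these values. Other chromosome 3 features had a median of 0.25 on the log2 scale across the lines, and the 1 member called there, Zfp639, rose by 0.55. Other X-linked features had a median of 0.72 in cl6, where the 3 X-linked members, Zfp275, Zfp182 and Zfp185, changed by 1.27, 0.93 and 0.62. None of these 3 was called over the 6 lines. The part of these shifts in the members' changes was not tested. Without the X-linked members the counts stayed at 63 higher and 43 lower of 259. Without the chromosome 4 cluster there were 63 higher and 34 lower of 252 members, with a median of 0.11. Other probes of the called members were checked where they were above background on all arrays. Of 54 such probes of 42 genes, 47 changed in the same direction and 23 were called in it, while 2 were called in the opposite direction, those of Zfp708 and Zfp975 named above. Calls and adjusted p-values of other probes come from a separate limma fit over all 55681 probes without the filter. They are therefore not on the scale of the main fit. The main probe of Zfp180, for example, had an adjusted p of 0.0125 in the main fit and 0.0552 there.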

How the data were processed

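Agilent Feature Extraction 11.0.1.1 made the scanner intensity values, and per the file headers gProcessedSignal is background-subtracted and detrended within each array. The authors' deposited log2 table, labelled loess, was made with limma per the submitters' processing notes. The sources used here do not give its filter. The members and all lists were chosen with earlier results of these data known.

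Control and flagged spots were left out (184 to 253 of 59305 spots flagged per array). The log2 processed signal was reduced by each array's 75th percentile (a signal of 409 to 521). Of 55681 probes, 30675 passed a background filter (above background throughout 1 group or more), and 1 probe per gene left 22967 features. The 2 arrays of the OHT culture of cl4 were averaged (r = 0.994). Symbols came from RefSeq (GRCm38.p6). The array annotation is mm9, and no coordinates were taken from it.

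limma 3.58.1 (R 4.3.3) was fitted to 12 samples with the line as a block and p-values adjusted by Benjamini-Hochberg over all features. Lines pair by design, since control and OHT cultures are the same line; deviations of a line's 2 samples correlated at -0.02 to 0.50. The procedure was tested on simulated data. Named members were the 10 largest called rises and falls of each OHT comparison with 1 direction in every line, the members of clusters with 3 or more calls, and members with known roles. Alternatives covered scaling, background, filter, block, samples and threshold. No protein sequences were used.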

Additional observations from a re-analysis of the deposited data

Results flagged for a closer look

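For 12 of the 262 members (4.58%, against 3.45% of all 22967 features) every 2ac line moved one way and every 2abc line the other way after OHT. The test of the difference itself passed for none of them, with limma adjusted p from 0.305 to 0.543. Zfp459 on chromosome 13 differed most, by -0.891 on the log2 scale (2abc change minus 2ac change, SE 0.13), and was the one of the 12 called in a single genotype, with -0.69 in 2abc (adjusted p = 0.0108) and 0.20 in 2ac. Its 2abc lines went from 1.08, 0.52 and 0.60 to 0.52, -0.13 and -0.26, and its 2ac lines from 0.88, 1.05 and 0.82 to 1.19, 1.13 and 1.03.

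The difference was -0.45 for Zfp959, -0.415 for Zfp65, -0.404 for Zfp622, -0.403 for Zfp35, -0.343 for Zfp566, -0.3 for Zfp111, -0.28 for Zfp663, -0.256 for Zfp408 and -0.189 for Zfp410. It was above 0 for Zfp341 (0.265) and Zfp646 (0.251). Apart from Zfp459 the changes of these genes within a genotype were not called.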

How the results depend on the processing

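Call counts depended on the settings more than directions did. Scaling by the median gave 24 members in 2ac and 43 in 2abc (2036 and 2929 of all 22967 features, in place of 2815 and 4046). The member share in 2ac was then near that of all features. With no filter on dim probes there were 14, 29 and, over the 6 lines, 68 (911, 1534 and 4357 of all 36983 features). Fits to 1 genotype's samples alone gave 23 and 19 (1597 and 929 of all 22967 features). Leaving out 1 line at a time gave 3 to 47 in 2ac, 6 to 84 in 2abc and 58 to 105 over the 6 lines. All-feature counts then ran from 157 to 3437, from 218 to 4726 and from 3567 to 6709. The cause of these differences was not tested, except that the latter fits hold fewer samples. Untreated lines of the 2 genotypes differed in 17 members (6.49%, against 8.75% of all features) at adjusted p under 0.10, in 6 with the authors' table and in 1 among features always above background, in place of 0. Their all-feature median difference moved from -0.04 to 0.26 with median scaling. Without the line as a replicate block the paired result of 49, 77 and 106 members became 48, 81 and 107. The other settings, including the slide as block and normexp on median spot signals, which was chosen after seeing the data, stayed within 1.5 times. Counting the 54 numbered Zfp genes outside the deposited table, also chosen after seeing the data, gave 58, 90 and 128 of 316. These were 18.4, 28.5 and 40.5%, against 12.3, 17.6 and 28.7 percent of all features. Normexp on mean spot signals was not run, since those signals were not used here. The difference between genotypes called 0 members in every fit.

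Over the 6 lines, some called members named in the text had another probe, above background on all arrays, of the opposite sign. These were Zfp708 (-0.41), Zfp84 (-0.067), Zfp975 (-0.52), Zfp930 (0.078) and Zfp933 (0.22). Other called members with such a probe were Zfp345 (-0.64, other probe 0.25) and Zfp68 (0.54, other probe -0.04). In 2ac and 2abc, those probes changed by 0.11 and 0.043 (Zfp930), 0.35 and 0.084 (Zfp933), and -0.43 and -0.60 (Zfp975). Opposite signs were also seen for Zfp423 in 2abc (-0.11 and -0.10), Zfp35 in 2abc (0.29) and Zfp462 over the 6 lines (-0.0005). Signs within a genotype, and those of members not called, were not listed in full. Of 96 named values 42 kept their call in every other fit.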

Other observations

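Beyond the 262 members, 54 further numbered Zfp genes on the array passed the filter of the test without being in the deposited table. Over the 6 lines 19 of them rose and 3 fell (40.7% called, against 28.7 percent of all features), with a median change of 0.29. A gene that is bright only after OHT can pass that filter, so this balance supports nothing about direction. Zfp608 rose by 2.09 over the 6 lines (limma adjusted p = 0.0105), with 1.52 in 2ac, where it missed the threshold (adjusted p = 0.116), and 2.66 in 2abc. Zfp783 rose by 1.52 and Zfp711 by 1.48. Zfp521, a regulator of neural and blood lineages, rose by 1.19 (adjusted p = 0.0386), with 0.49 in 2ac and 1.90 in 2abc. Zfp503, a developmental repressor, changed by 0.50 (adjusted p = 0.129). Zfp677, at the edge of the chromosome 17 cluster, rose by 1.28, and Zfp458, inside the chromosome 13 cluster, by 1.02. The falls were Zfp971 (-0.75), Zfp382 (-0.62) and Zfp516 (-0.57).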
